A study of Mus musculus with 6 samples.

Results

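Haematopoietic growth factor receptors are the 9 genes Kit, Flt3, Csf1r, Csf3r, Csf2ra, Il3ra, Epor, Csf2rb and Csf2rb2. They were chosen by name, with earlier results of these data known, so contrasts with all genes describe them and are not independent tests. Every probe set that the platform annotation assigns to them was taken, 15 of the 45037 probe sets tested, for 9 of 18193 genes. Of these, 14 probe sets name 1 receptor and 1 names both Csf2rb2 and Csf2rb. The arrays hold RNA of T cells isolated by negative selection from the spleens of individual male C57BL/6 mice aged 10 weeks. There were 3 mice labelled miR-142 KO, which lack the blood-lineage microRNA miR-142, and 3 wild-type (WT) littermates matched for age and sex, with no treatment named in either group. The labels do not say how the deletion was made or which cells other than T cells the preparations held. The values are log2 intensities of 1-colour Affymetrix arrays, on which 1 unit is a doubling.

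Growth factor receptors let blood cells and their precursors answer the factors that keep them alive and make them divide and mature. Kit, Flt3 and Csf1r are receptor tyrosine kinases, which phosphorylate themselves when their ligand joins a pair of them. The others belong to the cytokine receptor family, have no kinase of their own and signal through the associated kinase JAK2 to STAT5 and other factors. Mature T cells are not known for these receptors and depend on others, such as the interleukin-7 receptor, whereas progenitors, myeloid cells, mast cells and red cell precursors are defined by them.

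The microRNA that the KO mice lack has the mature arms below (RefSeq, GRCm38.p6, chromosome 11), shown because its loss is the only labelled difference between the groups. Capitals mark the seed, bases 2 to 8, which pairs with target RNAs.
mmu-miR-142a-5p: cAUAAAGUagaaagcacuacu
mmu-miR-142a-3p: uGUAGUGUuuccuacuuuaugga

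Promoter windows of 250 bases before the start were read from RefSeq (GRCm38.p6) for 7 receptor genes. Csf1r and Csf2rb are not among them, so the motif counts below leave them out. The 3 windows shown carry motifs of transcription factors measured on the same arrays. The letters GAGGAA, part of the motif of PU.1 (Spi1) and other ETS factors, and AGATAA, bound by GATA factors, were searched on both strands, and capitals mark the matches. The lines give the Csf3r window at chr4:126024409-126024658 on the plus strand, the Csf2ra window at chr19:61228419-61228668 on the minus strand and the Epor window at chr9:21963577-21963826 on the minus strand.
Csf3r: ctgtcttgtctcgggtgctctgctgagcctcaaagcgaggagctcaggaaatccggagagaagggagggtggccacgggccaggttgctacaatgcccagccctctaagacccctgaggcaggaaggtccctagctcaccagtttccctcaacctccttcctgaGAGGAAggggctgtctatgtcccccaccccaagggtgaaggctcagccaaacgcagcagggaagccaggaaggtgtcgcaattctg
Csf2ra: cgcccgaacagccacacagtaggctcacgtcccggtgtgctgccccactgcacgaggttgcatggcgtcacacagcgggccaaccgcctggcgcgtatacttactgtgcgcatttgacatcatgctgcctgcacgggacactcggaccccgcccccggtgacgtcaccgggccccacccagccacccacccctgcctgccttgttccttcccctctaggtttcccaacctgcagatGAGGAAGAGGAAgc
Epor: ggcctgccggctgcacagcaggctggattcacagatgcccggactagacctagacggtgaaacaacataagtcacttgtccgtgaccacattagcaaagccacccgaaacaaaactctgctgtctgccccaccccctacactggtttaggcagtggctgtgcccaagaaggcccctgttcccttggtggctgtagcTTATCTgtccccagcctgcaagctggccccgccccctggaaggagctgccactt

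The Csf3r match lies 86 to 81 bases before the start. Csf2ra has 2 adjoining GAGGAA matches, 14 to 9 and 8 to 3 bases before the start. The Epor match is AGATAA on the opposite strand, 54 to 49 bases before the start. Windows of Kit and Csf2rb2 also held GAGGAA, so that 4 of 7 receptor genes had it, against 23.3% of 32851 promoter windows of the same length. AGATAA was in 1 of 7 receptor genes and in 9.99% of the windows. The receptor counts are per gene, from 8 windows, whereas the shares are per window. A match describes letters in a window and not a bound site.

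The transcript annotated as Mir142, which hosts the microRNA, was measured first. Its log2 level was 7.93, 8.13 and 7.67 in the WT arrays and 5.97, 5.88 and 5.90 in the KO arrays. Every KO array lay below every WT array (limma adjusted p = 6.6e-05), although it is not known here whether this probe set lies in the deleted part. Hybridization controls, added at fixed amounts, had a mean of 10.21 ± 0.10 in the WT arrays and of 9.85 ± 0.060 in the KO arrays (SD, n = 3 each). The Actb control probe sets were brighter at the 3' end than at the 5' end by 0.20 ± 0.032 in WT and 0.36 ± 0.040 in KO. KO replicate 1 stood apart in the 18S controls, at 7.86 against 9.15 and 9.19 in the other KO arrays. It also stood apart in the 3' minus 5' difference of the Gapdh controls, at 0.18. The other KO arrays had -0.071 and -0.10 there, and the WT arrays -0.18 to -0.15. The labelled cell type was checked with 14 T cell markers, which averaged 12.00 to 12.01 in the WT arrays and 10.42, 9.20 and 10.62 in KO replicates 1, 2 and 3. All 14 fell.

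All 9 receptor genes rose in KO, each at its brightest probe set, and for each of them the lowest KO array exceeded the highest WT array. Across the 18193 genes 18.6% rose (limma, adjusted p below 0.05) and 24.1% had groups apart in this way. The median log2 difference was 2.61 for the 9 receptor genes and -0.059 for all genes. For 7 of the 9 the rise was at least 4-fold, which 3.3% of all genes reached. Of the 15 probe sets 13 rose and 0 fell, against 13.9% of all probe sets that rose. When the hybridization controls were used to scale the arrays, the median difference of all probe sets moved from -0.077 to 0.29 and 88.1% of the changed probe sets were higher in place of 47.2%. That scaling adds the same amount to every probe set, so the receptors' differences relative to the median are the same under it. In these bulk preparations more cells that carry a receptor and more receptor RNA per cell cannot be told apart.

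**Figure D1:**
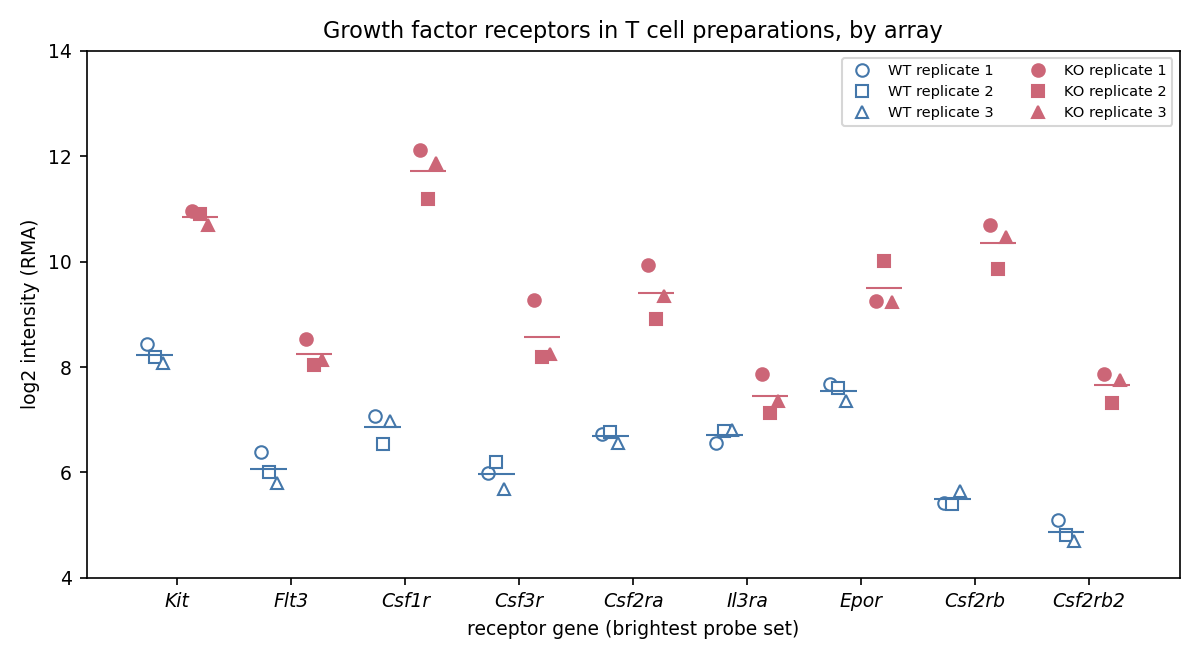
Log2 intensity (vertical axis) of the brightest probe set of each of the 9 receptor genes (horizontal axis) in 3 WT arrays (open) and 3 KO arrays (filled), with marker shapes for the replicate number and short lines for group means. KO points lie above WT points for every gene, with the narrowest gap at Il3ra and the widest at Csf1r and Csf2rb.

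Among the tyrosine kinase receptors, Csf1r, which binds M-CSF and Il34, differed most. Its brightest probe set (1419872_at) read 7.07, 6.54 and 6.97 in WT replicates 1, 2 and 3 and 12.11, 11.19 and 11.87 in KO replicates 1, 2 and 3. The groups lay far apart, with KO replicate 2 the lowest of the KO arrays. The rise was 29.1-fold, a log2 difference of 4.87 ± 0.25 (SE, n = 3 per group, limma adjusted p = 3.3e-05). Csf1r is carried by monocytes, macrophages and their precursors.

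The other Csf1r probe sets rose by less. The second (1419873_s_at) read 6.55, 6.50 and 6.92 in WT and 10.43, 9.33 and 10.19 in KO, a 10.1-fold rise. The third (1423593_a_at) read 7.21, 6.93 and 7.02 in WT and 8.79, 8.13 and 8.47 in KO, a 2.66-fold rise. All 3 placed KO replicate 1 highest and KO replicate 2 lowest among the KO arrays. The third was the brightest of the 3 in WT, so that choosing the probe set by its WT level would give 2.66-fold for Csf1r in place of 29.1-fold. The direction is the same in all 3, and the size depends on which one is read.

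Kit, the receptor of stem cell factor, marks progenitors and stays on mast cells. Its brighter probe set (1452514_a_at) read 8.43, 8.19 and 8.07 in WT and 10.96, 10.89 and 10.69 in KO. Both groups were tight, and the difference of 2.61 ± 0.12 (SE, n = 3 per group, limma adjusted p = 2.7e-05) had the smallest standard error among the 9 brightest receptor probe sets. The second Kit probe set (1415900_a_at) was dim, at 4.62, 4.41 and 4.36 in WT and 5.27, 5.57 and 5.69 in KO, and rose 2.06-fold. The bright Kit probe set was lowest in KO replicate 3 and the dim one in KO replicate 1. Of the 9 genes, 8 were highest in KO replicate 1 and 7 were lowest in KO replicate 2, and Kit was among those that were not lowest there.

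Flt3, the receptor of FLT3 ligand on early progenitors and dendritic cell precursors, had 1 probe set (1419538_at). It read 6.38, 6.01 and 5.81 in WT and 8.54, 8.05 and 8.13 in KO. The groups did not overlap, and the rise was 4.51-fold (log2 difference 2.17 ± 0.18, SE, n = 3 per group, limma adjusted p = 0.00019).

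Among the cytokine receptors, Csf3r binds G-CSF, the growth factor of neutrophils. Its probe set (1418806_at) read 5.99, 6.20 and 5.69 in WT and 9.27, 8.19 and 8.24 in KO. The groups did not overlap, and KO replicate 1 stood above the other KO arrays by more than the whole WT range. The difference was 2.60 ± 0.29 (SE, n = 3 per group, limma adjusted p = 0.00065), and it was 2.25 without KO replicate 1. Neutrophil markers, of which 10 of 13 rose, were likewise highest in KO replicate 1, with a list mean of 12.61 against 9.91 and 10.51 in KO replicates 2 and 3 and 6.14 to 7.13 in WT. Their part in the Csf3r difference was not tested.

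Csf2ra, the chain that binds GM-CSF, had 2 probe sets drawn from 1 accession that behaved differently. The first (1420703_at) read 6.73, 6.77 and 6.56 in WT and 9.94, 8.91 and 9.35 in KO. It rose 6.56-fold (log2 difference 2.71 ± 0.24, SE, n = 3 per group, limma adjusted p = 0.00023). The second (1420704_at) read 6.65, 6.50 and 6.05 in WT and 7.42, 6.47 and 6.91 in KO. Here the groups overlapped, since KO replicate 2 lay among the WT values, and the difference of 0.53 ± 0.26 did not pass (limma adjusted p = 0.17). That probe set passed without KO replicate 2 (adjusted p = 0.032) and under hybridization-control scaling (adjusted p = 0.024).

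Il3ra, the chain that binds interleukin 3 and is best known from basophils and plasmacytoid dendritic cells, showed the smallest rise. Its probe set (1419712_at) read 6.56, 6.78 and 6.81 in WT and 7.87, 7.13 and 7.35 in KO. The groups did not overlap, but KO replicate 2 lay close to the highest WT array. The rise was 1.67-fold (log2 difference 0.74 ± 0.19, SE, n = 3 per group, limma adjusted p = 0.023). Leaving out WT replicate 1, 2 or 3 ended the call, with adjusted p = 0.087, 0.062 and 0.052, and the differences were then 0.66, 0.77 and 0.78.

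Epor, the erythropoietin receptor of red cell precursors, had 1 probe set (1423344_at), which read 7.68, 7.60 and 7.35 in WT and 9.25, 10.01 and 9.24 in KO. It rose 3.88-fold (log2 difference 1.95 ± 0.22, SE, n = 3 per group, limma adjusted p = 0.00061). It was the only one of the 9 receptor genes that was highest in KO replicate 2. Erythroid markers, of which 7 of 8 rose and 1 fell, also had their highest list mean there, at 10.76 against 10.21 and 9.82 in KO replicates 1 and 3 and 7.44 to 7.85 in WT. Their part in the Epor difference was not tested.

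The common beta chains carry the signal of several ligand-binding chains. Csf2rb serves the receptors of GM-CSF, interleukin 3 and interleukin 5, and Csf2rb2, a mouse duplicate of it, serves interleukin 3 alone. The brightest Csf2rb probe set (1455660_at) read 5.42, 5.41 and 5.65 in WT and 10.70, 9.86 and 10.47 in KO. It rose 28.9-fold (log2 difference 4.85 ± 0.21, SE, n = 3 per group, limma adjusted p = 1.9e-05), from WT values below the median level of all probe sets, 5.75. The second Csf2rb probe set (1421326_at) read 5.22, 5.29 and 5.63 in WT and 8.79, 8.26 and 8.63 in KO, a 9.05-fold rise.

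Csf2rb2 (1449360_at) read 5.09, 4.80 and 4.70 in WT and 7.88, 7.32 and 7.76 in KO. It rose 6.91-fold (log2 difference 2.79 ± 0.17, SE, n = 3 per group, limma adjusted p = 5.8e-05). The beta chain genes and Csf1r shared the same order of KO arrays, with replicate 1 highest and replicate 2 lowest. The probe set assigned to both Csf2rb2 and Csf2rb (1450200_s_at) did not follow them. It read 6.58, 6.68 and 6.46 in WT and 6.74, 6.46 and 6.55 in KO, with overlapping groups and a difference of 0.010 ± 0.11 (limma adjusted p = 0.95). As the annotation names both genes for it, it was assigned to neither. It is annotated from the same sequence record as the second Csf2rb probe set, which rose 9.05-fold, and why they differ was not tested. The genes are near-identical copies in part, so signal of either gene on the other's probe sets cannot be told apart.

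**Figure D2:**
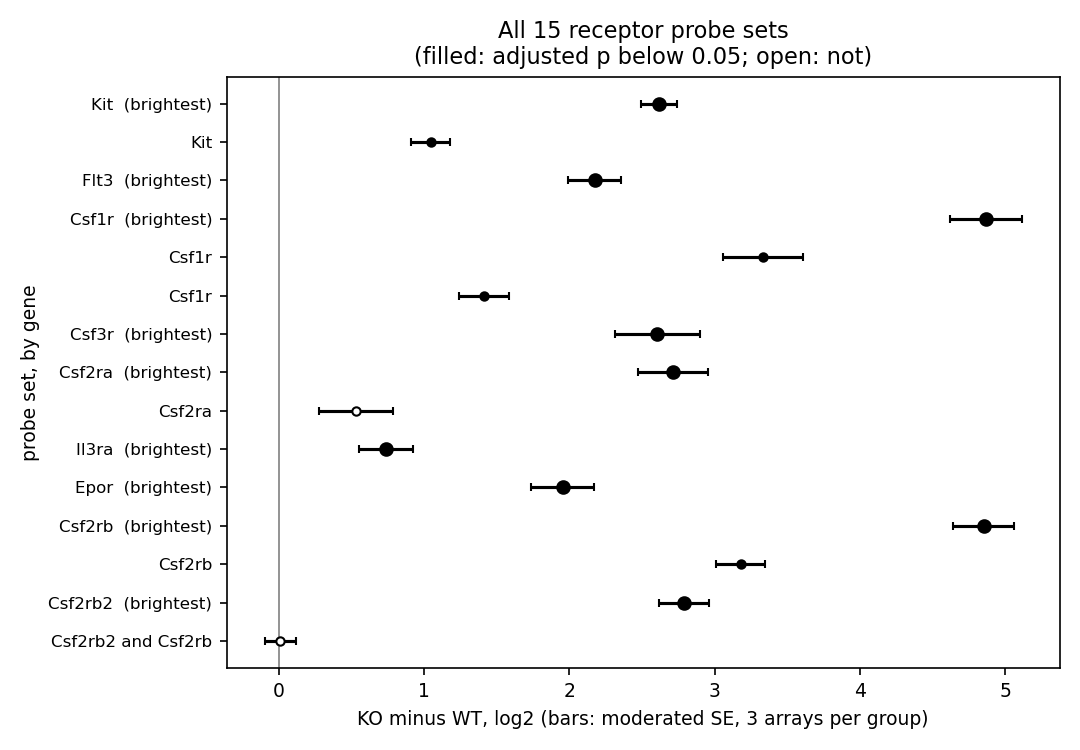
Difference of KO minus WT on the log2 scale (horizontal axis, bars are the moderated SE, 3 arrays per group) for all 15 receptor probe sets (vertical axis), with larger symbols for the brightest of each gene. Filled symbols passed the test, and the 2 open ones are the second Csf2ra probe set at 0.53 and the probe set shared by both beta chains at 0.010.

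In order of the difference at the brightest probe set, Csf1r and Csf2rb came first, followed by Csf2rb2, Csf2ra, Kit, Csf3r, Flt3, Epor and Il3ra. The place of Csf1r depends on the probe set, since the one brightest in WT differed by 1.41, less than Epor at 1.95. Neighbours in that order were compared by the log2 ratio of their probe sets within each array. For 6 of 8 neighbouring pairs the KO and WT ranges of this ratio overlapped. They were apart for Csf2rb against Csf2rb2, whose differences were 2.06 apart, and for Epor against Il3ra, 1.22 apart. The first gap is between probe sets, dim in WT but not in KO, of near-identical genes. It rests on the probe set read, since the second Csf2rb probe set differed by 3.18 and Csf2rb2 by 2.79. Both gaps had an exact two-sided permutation p = 0.1, the smallest that 3 against 3 arrays can give. After Benjamini-Hochberg adjustment over the 8 pairs it was 0.4. Pairs that are not neighbours were not compared.

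The KO arrays differed among themselves, and some but not all cell type marker lists shared the order of most receptors. Csf1r, Csf2ra, Csf2rb, Csf2rb2, Csf3r, Flt3 and Il3ra were highest in KO replicate 1 and lowest in KO replicate 2. The neutrophil, mast cell and basophil, eosinophil and dendritic cell marker means had the same order. The order was not limited to genes that rose. Il6ra, which fell, had it too, at 8.83, 7.51 and 8.44 in KO replicates 1, 2 and 3. Il7r, which also fell, was highest in KO replicate 3, at 10.43, 10.42 and 10.53. Mast cell and basophil markers (8 of 10 rose) had list means of 8.31 to 8.78 in KO and 5.30 to 5.64 in WT. Eosinophil markers (4 of 6 rose) had means of 8.44 to 8.75 and 4.96 to 5.20. Monocyte and macrophage markers (8 of 14 rose) had means of 6.69 to 7.52 and 5.45 to 5.75 and were highest in KO replicate 2, where C1qa, C1qb and C1qc, none of which passed, read 8.35, 7.96 and 7.05. Among the called markers of that list, Cd14, Cd68, Ccr2 and Cx3cr1 were highest in KO replicate 1 and lowest in KO replicate 2, as Csf1r was. The called markers Vcam1, Cd163 and Mrc1 were instead highest in KO replicate 2 and lowest in KO replicate 3. Adgre1, also called, was highest in KO replicate 1 and lowest in KO replicate 3. Progenitor markers (8 of 10 rose) had means of 8.07 to 8.32 and 6.12 to 6.17 and were highest in KO replicate 3. The part of these cells in the receptor differences was not tested. The arrays give no detection calls, so no marker can be called absent.

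**Figure D3:**
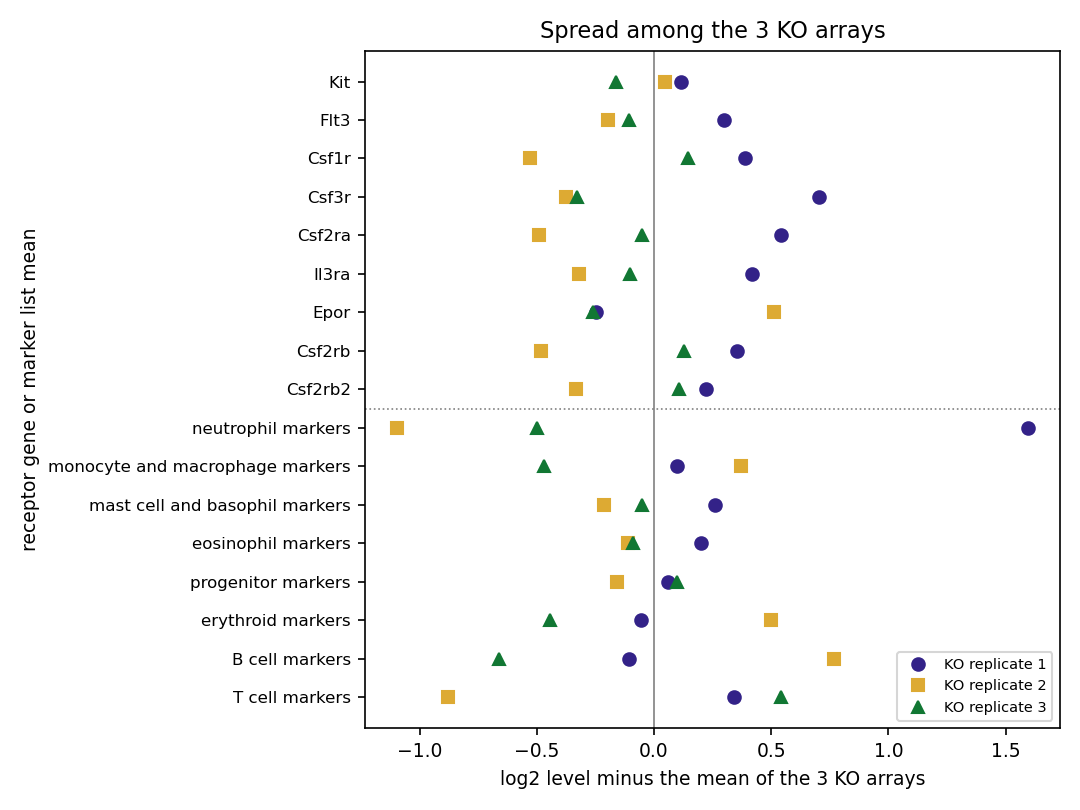
Log2 level of each receptor gene and of the mean of each marker list in the 3 KO arrays, given as the distance from the mean of those 3 arrays (horizontal axis). Of the 9 receptors, 8 have KO replicate 1 farthest right, whereas Epor and the erythroid, B cell, and monocyte and macrophage markers have KO replicate 2 there.

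Several defining markers of the cells that carry these receptors did not pass. Under hybridization-control scaling all 10 mast cell and basophil, all 6 eosinophil and 13 of 14 monocyte and macrophage markers rose, as did 38.4% of all probe sets. That share is per probe set, whereas the markers are counted per gene. Tpsb2 and Tpsab1, tryptases of connective tissue mast cells, differed by 0.095 and 0.040. Other mast cell proteases of that list, Mcpt4, Cpa3 and Cma1, rose by 4.89, 4.39 and 2.10. Ccr3 and Il5ra, eosinophil receptors, differed by 0.12 and 0.28. The macrophage markers Marco, Ms4a7 and Fcgr1 differed by 0.17, 0.11 and 0.10. Tpsab1, Ccr3, Il5ra and Marco were dim, with means of 4.61, 3.92, 4.39 and 5.14 in WT and 4.65, 4.04, 4.67 and 5.31 in KO. These lie below the median WT level of all probe sets, 5.75, where a change may be understated. In the same lists Fcer1a, a chain of the IgE receptor, rose by 4.94, the eosinophil peroxidase Epx by 6.39 and the adhesion molecule Vcam1 by 4.03. Dendritic cell (4 of 8 rose) and megakaryocyte and platelet markers (5 of 8 rose) had means of 7.25 to 7.59 and 6.99 to 7.26 in KO, above 6.24 to 6.50 and 5.84 to 6.08 in WT. Of 9 B cell markers 1, Blnk, rose, by 2.34, and it did not pass when WT replicate 2 or 3 was left out or with an intensity trend and robust fitting. Its KO values were 7.59, 9.73 and 7.19, highest in replicate 2. Ebf1, Cd79a and Cd79b did not pass but were also highest there among the KO arrays, at 11.22, 9.40 and 10.40, as were Cd22 and Pax5. Ms4a1, Cr2 and Fcer2a were instead lowest in KO replicate 2. Of 6 NK cell markers 5 fell.

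The measured ligands of these receptors differed little, but several were dim. Of 10 listed ligand genes 7 were measured, and Flt3l, Epo and Thpo were not. Il3, Il5 and Il34 had WT means of 3.83, 4.04 and 4.89, below the median of 5.75 for all probe sets. A change at such levels may be understated. Of 7 measured ligand genes 0 rose and 1 fell, with a median log2 difference of -0.11 against -0.059 for all genes. Csf2, which encodes GM-CSF, was the one that fell, from 5.97, 5.83 and 5.79 in WT to 5.66, 5.36 and 5.39 in KO, a difference of -0.40 ± 0.11 (SE, n = 3 per group, limma adjusted p = 0.034). That call ended when WT replicate 1, 2 or 3 or KO replicate 2 or 3 was left out, and under hybridization-control scaling, where the difference was -0.030. Csf1, which encodes M-CSF, differed by 0.46 (adjusted p = 0.10), and under that scaling Csf1 and Il3 rose. Kitl, the gene of stem cell factor, differed by -0.18 and Csf3, the gene of G-CSF, by -0.11.

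Of 11 related receptors measured, 1 rose, 5 fell and 5 did not pass, and 18.6% of all genes fell. Under hybridization-control scaling 3 rose and 3 fell, and the falls of Ghr and Pdgfra, both dim, were lost. Il7r, which naive T cells need to survive, read 12.72, 12.80 and 12.73 in WT and 10.43, 10.42 and 10.53 in KO, a 4.89-fold fall with narrow groups (limma adjusted p = 1.2e-05). Il6ra and Il4ra, the receptors of interleukins 6 and 4, fell by 1.95 ± 0.30 and 1.45 ± 0.24 (SE, n = 3 per group), and these 3 falls also passed under hybridization-control scaling, though Il4ra did not against a minimum change of 1.5-fold. Pdgfrb, a tyrosine kinase receptor of the same class as Kit and Csf1r, read 4.35, 4.69 and 4.56 in WT and 8.53, 7.61 and 8.23 in KO, a 12.0-fold rise. Its other probe set, brighter in WT, differed by 0.30 (limma adjusted p = 0.12), so the Pdgfrb rise rests on 1 of 2 probe sets. Il5ra, which pairs with Csf2rb in the interleukin-5 receptor, differed by 0.28 (adjusted p = 0.16) and rose under hybridization-control scaling.

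Of 17 proximal signalling genes measured, 5 rose and 5 fell, while 18.6% of all genes rose and 18.6% fell. Under hybridization-control scaling, where 38.4% of all probe sets rose, 8 of these genes rose and 1 fell. The share of 38.4% is per probe set and the count per gene. Without that scaling 18.6% of genes and 13.9% of probe sets rose. Plcg2, a phospholipase of myeloid and B cells, rose by 3.18 ± 0.16 (SE, n = 3 per group, limma adjusted p = 3.3e-05). Gab2, a docking adaptor downstream of Kit and the beta chain, rose by 3.10 ± 0.11, with 2 of its 3 probe sets past the test, and Fes, a kinase of myeloid cells, rose by 3.09 ± 0.25. Jak1, the kinase of the interleukin-7 receptor among others, fell by 1.30 ± 0.18. The factors nearest to the growth factor receptors moved by less. Jak2 fell by 0.42 ± 0.085 and Stat5b by 0.37 ± 0.098, both calls lost under hybridization-control scaling, and Stat5b also when any 1 array other than KO replicate 1 was left out. Stat5a rose by 0.37 ± 0.095, which did not pass when WT replicate 2, KO replicate 1 or KO replicate 3 was removed.

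Of 15 inhibitors of receptor signalling 2 rose and 6 fell, beside the same 18.6% of all genes in each direction. With the arrays scaled to hybridization controls 6 rose and 3 fell, beside 38.4% of all probe sets that rose, again a share per probe set. Cblb, a ubiquitin ligase that restrains T cell activation, fell by 1.69 ± 0.14 (SE, n = 3 per group), the adaptor Dok2 by 1.39 ± 0.18 and Socs3, a feedback inhibitor of cytokine receptors, by 1.22 ± 0.27. These 3 falls passed under that scaling too, and Socs3 did not against a minimum change of 1.5-fold. Spred1, an inhibitor of Ras signalling downstream of Kit, rose by 1.45 ± 0.23 at its brightest probe set and in 5 of its 8 probe sets. Cish and Socs2, targets of STAT5, differed by -0.025 and 0.95 and did not pass. Socs2 read 8.04, 8.23 and 8.08 in WT and 7.97, 10.88 and 8.35 in KO, so that KO replicate 2 stood apart.

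Most listed transcription factors known to act on such receptor genes also rose in KO. Of 13 measured, 11 rose and 1 fell, with a median log2 difference of 2.38, and 18.6% of all genes rose. Of these, Runx1 rose at 1 of its 6 probe sets and Mitf at 1 of its 2. Against a minimum change of 1.5-fold both lost their calls and 9 regulators rose. Spi1, the gene of PU.1, which drives Csf1r and Csf3r, read 5.97, 5.91 and 5.83 in WT and 9.47, 8.55 and 8.77 in KO, an 8.15-fold rise. Cebpa, a factor of granulocyte precursors, rose 10.5-fold. Gata1 and Klf1, factors of red cell precursors, rose 4.79-fold and 5.37-fold, and both were highest in KO replicate 2, as Epor, Gfi1b, Tal1 and Lmo2 were. Gata2, Tal1, Lmo2 and Gfi1b, factors of progenitors, red cell and mast cell precursors, rose 5.74-fold, 5.20-fold, 6.26-fold and 5.96-fold. Fli1, an ETS factor also present in T cells, fell by 0.56 ± 0.13 (SE, n = 3 per group). Scaling to hybridization controls ended that call, as did removing WT replicate 1, WT replicate 3 or KO replicate 3. Gata2 and Klf1 also stand in the progenitor and erythroid lists. The part of these factors in the receptor differences was not tested.

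**Figure D4:**
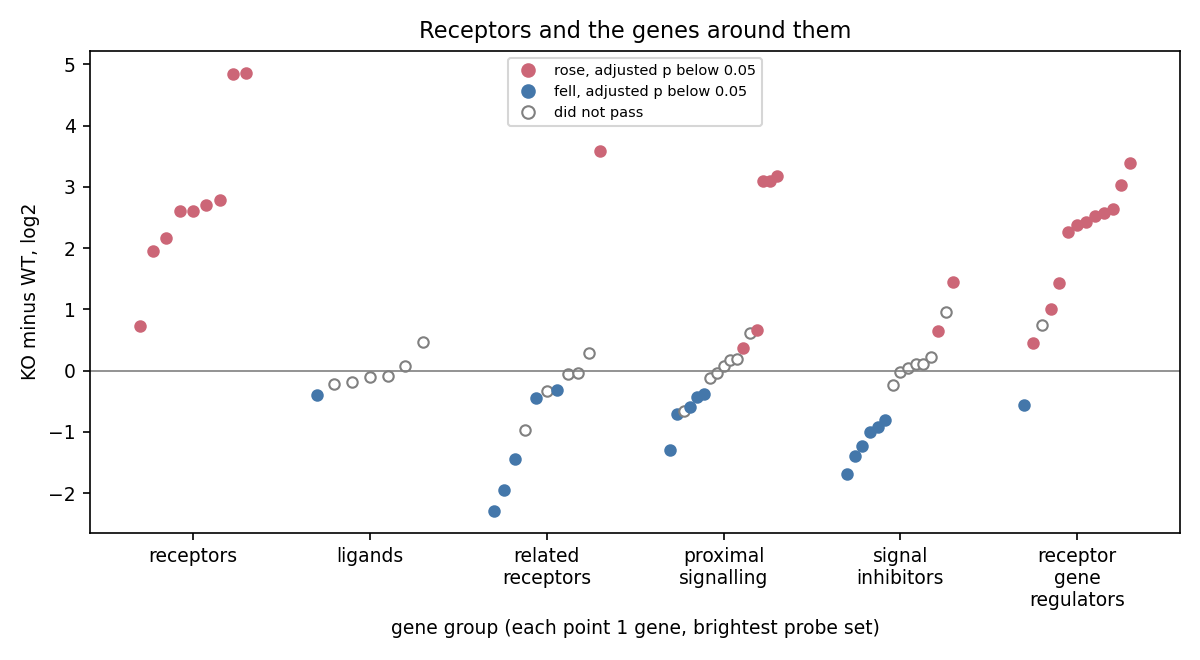
Difference of KO minus WT on the log2 scale (vertical axis) for each gene at its brightest probe set, in 6 gene groups (horizontal axis). Red points rose, blue points fell and open points did not pass, and the 9 receptors and 11 of the 13 regulators of receptor genes lie in red above 0.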

How the data were processed

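The authors deposited log2 probe-set intensities of 6 arrays, made with RMA per the submitters' processing notes, whose version is not given in the sources used here. Of 45101 probe sets 64 are array controls, and 45037 were tested. The platform annotation named 1 gene for 34945 of them and several for 932. The gene table (GRCm38.p6) held the Entrez ID of 34741, which changed 0 symbols. Each gene was read at the probe set that was brightest on average in all 6 arrays. Because KO values enter that choice, the probe set brightest in WT was also read, as decided after seeing the data. Without detection calls, a change in a dim probe set may be understated.

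Groups follow the titles, with 3 individual mice each. R 4.3.3 and limma 3.58.1 (lmFit, eBayes) fitted genotype over all probe sets, with two-sided p values adjusted by the Benjamini-Hochberg method. Rose and fell stand for an adjusted p below 0.05. The fit was tested on simulated data. The number of arrays limits the precision. Of the columns of per-sample values, 0 were unused. Alternatives were a filter on dim probe sets, repeated quantile normalization, centring on array medians, scaling to hybridization controls, an intensity trend with robust fitting, weighting of arrays, blocking on replicate number, a looser threshold of 0.1, a test against a 1.5-fold change, leaving out single arrays, averaging a gene's probe sets, and omitting the suffixes _s_at, _x_at and _a_at.

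The receptors and the lists around them were chosen with earlier results of these data known. The rule names all 9 receptors, the 3 genes nearest to each in profile, up to 4 called genes per pathway list with the largest differences plus any at or beyond 4-fold, and up to 2 per marker list. Other genes were named after their values were seen.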

Additional observations from a re-analysis of the deposited data

How the results depend on the processing

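All 9 receptor genes rose under each alternative except the replicate block, the minimum change of 1.5-fold, the left-out suffixes and the arrays named next, where 8 rose. With 1 array removed at a time, 8 to 9 receptor genes and 12 to 14 receptor probe sets rose and 0 fell, and Il3ra was the gene lost, without any 1 WT array. Il3ra also lost its call with the replicate block (adjusted p = 0.058) and with the minimum change, and without the suffixes Kit had no probe set. The probe set shared by Csf2rb2 and Csf2rb turned from 0.010 to -0.024 after a repeated quantile normalization and ranged from -0.069 to 0.074 with 1 array removed (-0.046 without WT replicate 3 and -0.069 without KO replicate 1), and the cause was not tested. For same-numbered WT and KO arrays the correlations of their deviations across probe sets were 0.10, -0.24 and -0.20. Those of differently numbered arrays ran from -0.16 to 0.27. Deviations from a mean of 3 arrays depend on each other, so these values cannot show whether equal numbers share a litter or batch. The labels do not say so either. With the replicate block 5296 probe sets rose and 5117 fell in place of 6242 and 6986. Under a minimum change of 1.5-fold 2094 rose and 1164 fell, and under hybridization-control scaling 17309 and 2337. Under that minimum change Csf2, Jak2, Stat5a, Stat5b, Fli1 and Blnk also lost their calls, and 5 monocyte and macrophage markers rose in place of 8, while 7 T cell markers fell in place of 14 and 2 NK cell markers in place of 5. The number of arrays and the lack of detection calls limit what can be said of dim probe sets.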

Other observations

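For each receptor gene, the 3 other genes with the nearest profile were found by the root mean square difference over the 6 arrays between log2 values centred on each gene's WT mean. All arrays enter this measure, so it mostly matches genes with a similar rise. Kit was nearest to Lmo2 (0.10 log2 units), a transcriptional adaptor of progenitors, and then to Lhfpl2 and the proliferation gene Mki67 (0.13 each). Csf1r was nearest to Gria3 (0.12), a glutamate receptor subunit, then to Tyrobp (0.14), a signalling adaptor of myeloid and NK cells, and to Csf2rb (0.16). Csf2rb in turn was nearest to Mpo (0.13), the neutrophil peroxidase, followed by Csf1r. Csf3r was nearest to Csf2ra (0.18), then to Myadm (0.21) and Krt18 (0.23).

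Csf2ra was nearest to Grk3 (0.15), Aif1 (0.16), a gene of macrophages, and Mgam (0.18). Csf2rb2 was nearest to Tmem176a (0.087) and Tmem176b (0.13), a neighbouring pair of membrane protein genes, and to Hfe (0.13), a regulator of iron uptake. Flt3 was nearest to Rbm47 (0.12), B3gnt8 and Rassf8 (0.16 each). Epor was nearest to Fam83d (0.087), a gene of the mitotic spindle, Abcb4 (0.11) and Scoc (0.13). Il3ra, which rose least, was nearest to Palm (0.057), Tcn2 (0.058) and Nfic (0.089).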
